A study of Mus musculus with 52 samples.

Results

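Imprinted growth genes are genes that are read mainly from the copy inherited from 1 parent and that act on growth. A set of 10 of them was described here across kidney cell clones carrying edited dynein-2 genes and their controls: Mest, Peg3, Plagl1, H19, Igf2, Igf2r, Grb10, Cdkn1c, Dlk1 and Meg3. The members were chosen by gene symbol, with earlier results of these data known, and all 10 were among the 24421 symbols counted in every library.

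RNA was sequenced from Cilia-APEX-IMCD3 cells, a mouse inner medullary collecting duct line with a cilium-targeted peroxidase, in 52 libraries that form 13 sets, each of 4 technical replicate libraries of 1 clone in 1 state. CRISPR base editing had been used to install missense changes that cause human skeletal ciliopathy in Wdr34 or Wdr60, the intermediate chains of the dynein-2 motor, and the labels call the edited clones homozygous mutants. Non-ciliated cells comprised the mutant clones Wdr34 and Wdr60 and the control clones AB, Co1, Co2 and Co3, and ciliated cells comprised the mutant clones Wdr34-1, Wdr34-3 and Wdr60 and the control clones D8, H12, A4 and G7. The study's methods give serum starvation for ciliated cells, whereas the labels give the same serum medium for every library. Control cells had received the base editor and a guide plasmid without a target sequence, and every clone, mutant or control, was grown from 1 sorted cell. The labels name no amino acid change. The study describes 3 mutant clones in all, 1 Wdr34 clone being made only after the non-ciliated cells had been sequenced, so by that account the 5 mutant sets of libraries come from 3 clones, and the labels do not say which ciliated Wdr34 set matches the non-ciliated one. Each set of 4 libraries in 1 state is called a clone here, and n = 13 counts these sets, which are not all independent between states. Mutation and clone cannot be told apart within 1 mutant clone, and the states were sequenced at different times. The control clones carry different names in the 2 states, but the study speaks of 4 controls, so the 8 control sets may come from as few as 4 clones, and values over 8 control clones or between the control clones of the states may not rest on separate clones.

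Imprinting is set in the germ line by DNA methylation at control regions, which is then copied at each cell division, so that the silent copy stays silent in the daughter cells. In the kidney many imprinted growth genes are high in the fetus and low after birth. The counts do not separate the parental copies, so only the summed RNA of both is described, and since each library is a bulk sample, fewer cells that express a gene and less RNA per cell cannot be told apart.

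Promoter sequences are shown for Mest, Plagl1 and Peg3, the paternally expressed members that passed the expression filter and were called lower in non-ciliated mutants. Each window runs from 250 bases before to 50 bases after a RefSeq transcript start on GRCm38.p6, written 5′ to 3′ on the gene's strand. Capitals mark TGCCGC or its reverse complement GCGGCA, the core motif of ZFP57, a zinc finger protein that binds it when methylated and keeps imprints in the early embryo. The windows are chr6:30737800-30738099 on the plus strand for Mest, chr10:13090582-13090881 on the plus strand for Plagl1 and chr7:6730370-6730669 on the minus strand for Peg3.
Mest: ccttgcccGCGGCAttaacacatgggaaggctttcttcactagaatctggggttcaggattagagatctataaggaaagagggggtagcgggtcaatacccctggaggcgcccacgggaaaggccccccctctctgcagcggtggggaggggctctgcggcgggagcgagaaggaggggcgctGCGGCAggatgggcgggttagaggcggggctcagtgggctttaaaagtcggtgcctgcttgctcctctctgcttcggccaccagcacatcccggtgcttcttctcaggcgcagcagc
Plagl1: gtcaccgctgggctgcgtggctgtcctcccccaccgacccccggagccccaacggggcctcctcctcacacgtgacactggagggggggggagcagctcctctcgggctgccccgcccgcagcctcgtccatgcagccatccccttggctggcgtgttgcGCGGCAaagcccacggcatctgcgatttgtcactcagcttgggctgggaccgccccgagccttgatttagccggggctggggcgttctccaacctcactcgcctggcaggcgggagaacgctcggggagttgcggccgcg
Peg3: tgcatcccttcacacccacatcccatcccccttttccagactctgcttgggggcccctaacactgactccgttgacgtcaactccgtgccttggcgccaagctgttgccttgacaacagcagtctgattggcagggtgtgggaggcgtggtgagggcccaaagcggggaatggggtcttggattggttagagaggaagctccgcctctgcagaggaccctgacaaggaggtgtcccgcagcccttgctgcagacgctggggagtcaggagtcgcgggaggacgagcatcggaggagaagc

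The Mest window held the motif 2 times, the Plagl1 window 1 time and the Peg3 window 0 times, on either strand and counting no overlaps with another motif. Of 32851 mouse windows of the same length, 11.6% held it at least 1 time and 1.5% at least 2 times. RefSeq lists 3 windows for Mest: the one at the start of the gene, chr6:30733256-30733555, held 0, and the third is shifted by 3 bases from the one shown and held the same 2. Over the 15 windows listed for 8 of the members, 6 held it, the 2 shifted Mest windows counted separately. These are letter matches, and neither methylation nor binding was measured.

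Library totals were 14816218 to 28084979 counts (median 17414011). No replicate pair was identical (0 of 78 pairs). In 4 libraries the highest correlation with another library of the same clone was under 0.99: library 1 of AB, library 1 of the non-ciliated Wdr60 clone, library 1 of A4 and library 4 of G7. Library 1 of AB stood out in the members too, at 64.4 CPM (counts scaled to a common library total) of Peg3 against 228 to 247 in the other AB libraries, so results were also computed without these 4. Of 12 renal epithelial markers, 9 or 10 exceeded 1 CPM in each group, although Aqp2, the water channel of mature collecting duct, had 0 counts in all groups but the non-ciliated mutants. The epithelial adhesion genes Cdh1 and Epcam were low in 2 control clones, at 4.22 and 2.86 CPM in Co2 and 14.4 and 13.5 CPM in G7, against at least 242 and 183 CPM in every other clone, so the main values of H19 and Igf2, which are high in Co2 or G7, and the counts of called members were also computed without them. Peg3 was also highest in Co2 among non-ciliated and in G7 among ciliated clones. Its fold changes without them are given below, but its SD between clones was not computed without them. The 4 endothelial markers summed to at most 0.186 CPM in any clone. Wdr34 and Wdr60 RNA was called in no comparison with controls, which is no check of a missense edit.

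In these cells the members fell into 3 classes of level. Peg3 and Igf2r had reads in all 52 libraries at high levels. Mest, H19, Plagl1 and Igf2 had levels that depended on the clone. Of these, Mest had reads in all 52 libraries and a lowest clone mean of 1.18 CPM, whereas H19, Plagl1 and Igf2 ran from near 0 to many CPM. Grb10, Cdkn1c, Dlk1 and Meg3 were at or near 0 throughout. Scaled by length, as CPM per kilobase of exon, the mean over 13 clones was 20.1 ± 15.0 for Peg3, 12.95 ± 2.87 for Igf2r, 5.02 ± 9.57 for H19, 1.88 ± 1.25 for Mest, 0.564 ± 0.724 for Plagl1 and 0.369 ± 0.884 for Igf2 (SD, n = 13 clones). The SD exceeded the mean for H19, Plagl1 and Igf2, so that these means describe few clones.

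**Figure D1:**
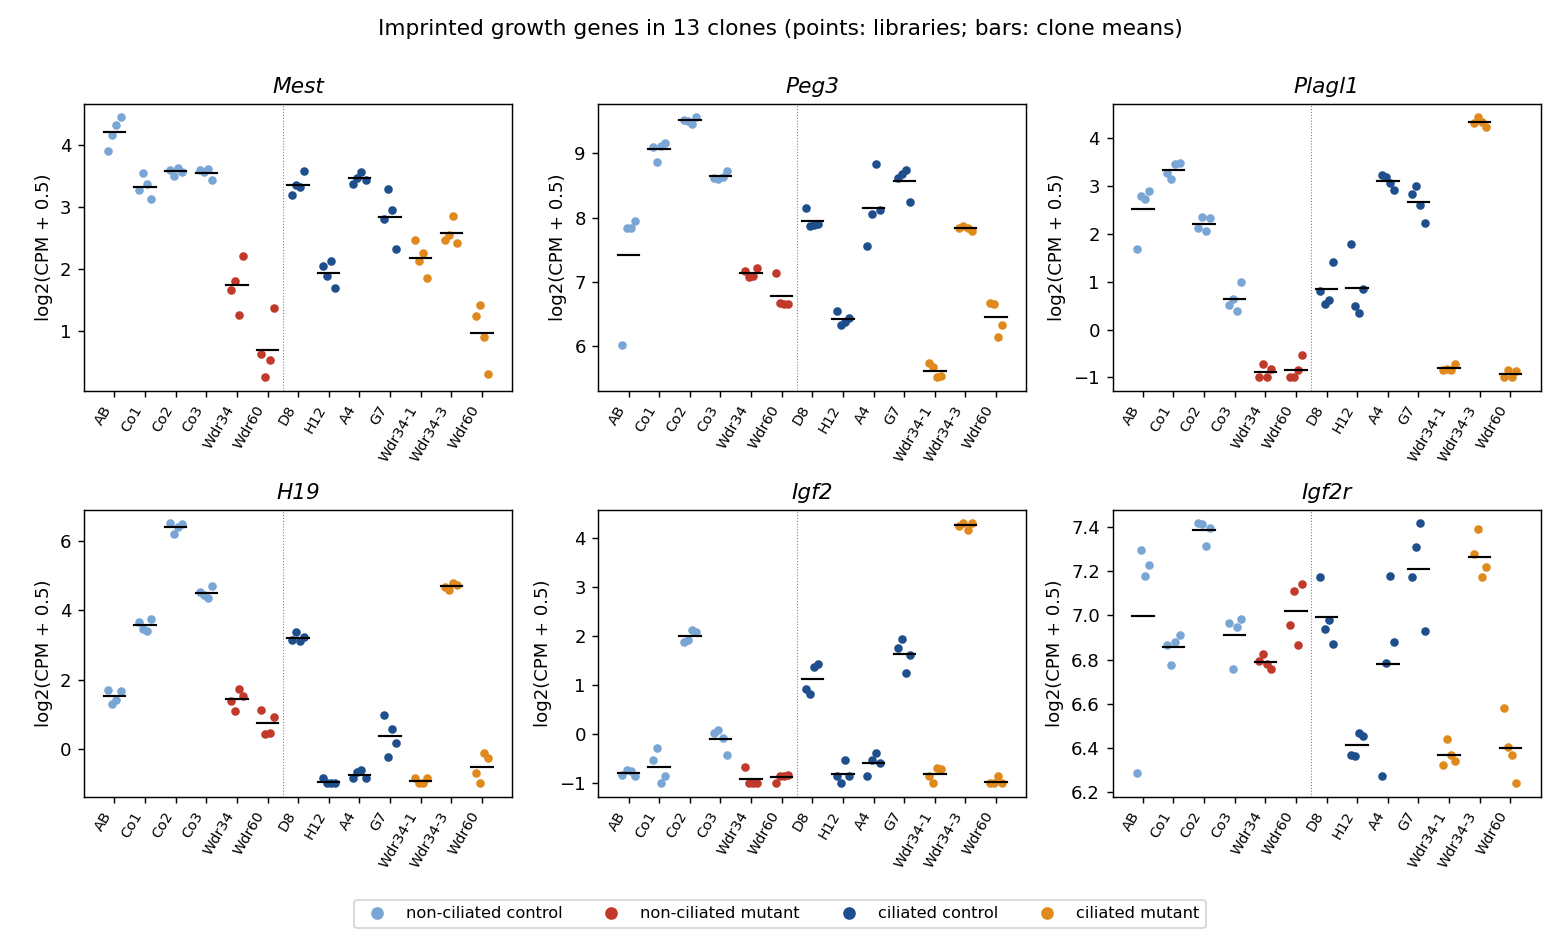
Level of 6 imprinted growth genes on the y axis, as log2(CPM + 0.5), in each of 13 clones on the x axis; points are libraries (4 per clone), black bars are clone means, and the dotted line separates non-ciliated from ciliated clones. Plagl1 lies near the bottom of its axis in 4 of the 5 mutant clones and near the top in the ciliated Wdr34-3 clone, and Igf2r varies least.

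The paternally expressed genes come first. Mest encodes a hydrolase-like protein of the endoplasmic reticulum that is abundant in growing embryonic mesoderm. In non-ciliated cells its level was lower in both mutant clones than in every control clone, and in ciliated cells the mutant mean was below the control mean but the clones overlapped. On GRCm38 the gene lies at chr6:30733506-30748466.

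The Mest level in the non-ciliated control clones was 18.3 ± 3.004 CPM in AB, 9.58 ± 1.24 in Co1, 11.4 ± 0.422 in Co2 and 11.2 ± 0.611 in Co3, against 2.92 ± 0.933 in the Wdr34 clone and 1.18 ± 0.614 in the Wdr60 clone (SD, n = 4 libraries). No library of either mutant clone reached the lowest control library, 8.22 CPM. Over clones the mean was 12.6 ± 3.85 CPM in controls (SD, n = 4) and 2.05 ± 1.23 CPM in mutants (SD, n = 2).

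In ciliated cells the Mest level was 9.82 ± 1.18 CPM in D8, 3.34 ± 0.499 in H12, 10.5 ± 0.644 in A4 and 6.85 ± 1.95 in G7, against 4.08 ± 0.800 in Wdr34-1, 5.48 ± 0.852 in Wdr34-3 and 1.53 ± 0.623 in Wdr60 (SD, n = 4 libraries). The control clone H12 lay below both Wdr34 clones, so the groups overlapped, and only the Wdr60 clone was under every control clone. Over clones the mean was 7.64 ± 3.28 CPM in controls (SD, n = 4) and 3.69 ± 2.01 CPM in mutants (SD, n = 3).

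Ordered over all 13 clones, Mest was lowest in the non-ciliated Wdr60 clone and next lowest in the ciliated Wdr60 clone, and highest in AB. Of the 12 pairs of neighbours in that order, the libraries of 11 overlapped, and AB alone stood above its neighbour Co2 in every library. The order therefore separates the ends and not the steps between.

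Genes were called with edgeR quasi-likelihood F tests at a Benjamini-Hochberg adjusted p under 0.05 over all genes tested together with an absolute log2 fold change of 1 or more. The libraries were the samples of these tests, and since 4 of them share a clone, p-values measure the spread between libraries more than that between clones and are too small for a statement on genotype. In non-ciliated cells, 2.57% of the 12012 genes tested were called lower in mutants and 0.491% higher. Of the 5 members tested, 4 were called lower (Mest, Peg3, Plagl1 and H19) and 0 higher, also without Co2. The members were chosen with earlier results of these data known, so their counts here and below are no test against the share of all genes. With the libraries of each clone summed 0 of the 4 were called (adjusted p = 0.976 for each), although their folds stayed about as large. They were -2.61 for Mest, -4.17 for H19, -1.89 for Peg3 and -6.55 for Plagl1. Igf2r, at -0.16, had the same adjusted p. The adjustment over all genes can give the same value to genes with different unadjusted p, so these values do not rank the members. With the clone as a block in voomLmFit 1 of the 4 was called, Mest (adjusted p = 0.0372). Of 7 fibroblast and smooth muscle markers 2 were tested, and Acta2, a smooth muscle actin, was called lower with the members, at -3.17 ± 0.80 (SE, adjusted p = 0.00922, edgeR); the list summed to 3.07 to 3.84 CPM in non-ciliated mutants and 4.88 to 7.35 CPM in their controls, with Col3a1 and Thy1 at 0 counts in both, and its part in the result was not tested. In ciliated cells, 0.226% of 11950 genes were called lower and 0.418% higher, and of 5 members tested 1 was called lower (Mest) and 0 higher.

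For Mest the log2 fold change was -2.62 ± 0.27 in non-ciliated cells (SE, adjusted p = 1.56e-06, edgeR) and -1.05 ± 0.28 in ciliated cells (SE, adjusted p = 0.0376, edgeR). The ciliated call was near the threshold and was lost without any 1 replicate number and without Wdr34-1, Wdr60 (-0.69), D8 or A4. It was also lost with the replicate number as a block (-1.06) and with the libraries of each clone summed (-1.04, adjusted p = 1), where the fold stayed about as large. Exact 2-sided permutation of clone means gave p = 0.0667 in non-ciliated cells, the smallest that 2 against 4 clones allow, and p = 0.143 in ciliated cells, where 3 against 4 allow 0.0286. Adjusted over all genes tested, both were 1.

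Every mutant clone mean lay below every control clone mean in 5.89% of genes in non-ciliated cells and 0.812% in ciliated cells, and above them in 6.99% and 1.12%. The members lower without overlap in non-ciliated cells were Mest, Peg3, Plagl1 and H19, 4 of the 5 tested. In ciliated cells there were 0 in either direction.

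At its 3′ end Mest meets Copg2, a coat protein gene on the opposite strand, which shares 912 bases or 23.1% of the Mest exons in GENCODE vM21. The strand setting of the counting is not given in the sources used here, so reads in this overlap are uncertain. Copg2 ranged from 71.2 CPM in the ciliated Wdr60 clone to 123 CPM in Wdr34-3, a narrower range than that of Mest, and its SD between all 13 clone means was 0.27 on the log2 scale against 1.08 for Mest. Pearson's r of Mest and Copg2 was 0.521 over the 13 clone means and 0.147 over the 8 control clones, and the part of shared reads in the Mest level was not tested.

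Peg3 encodes a large zinc finger protein that represses other genes and, with Mest, is known for its part in maternal behaviour. Its mean over 13 clones was the highest of the members per length, although Igf2r exceeded it per length in H12 and in every mutant clone but Wdr34-3. At chr7:6703892-6730462, it ranged from 48.7 ± 3.71 CPM in Wdr34-1 to 730 ± 24.5 CPM in Co2 (SD, n = 4 libraries).

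Non-ciliated controls held 192 ± 85.6 CPM of Peg3 in AB, 536 ± 48.8 in Co1, 730 ± 24.5 in Co2 and 400 ± 14.5 in Co3, and the mutants 141 ± 6.52 in Wdr34 and 111 ± 20.03 in Wdr60 (SD, n = 4 libraries). Both mutant means were below every control mean, although library 1 of AB, at 64.4 CPM, was below all non-ciliated mutant libraries. The log2 fold change was -1.89 ± 0.30 (SE, adjusted p = 0.000225, edgeR) and -1.99 without the 4 libraries that stand apart, and the call was lost with the clone as a block (adjusted p = 0.362). Without Co2, where Peg3 was highest, the log2 fold change was -1.58 (adjusted p = 0.000564, edgeR).

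Among ciliated clones Peg3 was at 248 ± 24.3 CPM in D8, 85.5 ± 5.70 in H12, 297 ± 112 in A4 and 383 ± 54.8 in G7, and at 48.7 ± 3.71 in Wdr34-1, 228 ± 5.23 in Wdr34-3 and 87.7 ± 15.3 in Wdr60 (SD, n = 4 libraries). Control H12 was level with the Wdr60 mutant, and Wdr34-3 with control D8. With a log2 fold change of -1.07 ± 0.33 (SE, adjusted p = 0.071, edgeR), Peg3 was not called. It was called without Wdr34-3, at -1.90 (adjusted p = 0.00118), without H12, at -1.35 (adjusted p = 0.00399), and with DESeq2 (adjusted p = 0.0177), and without Wdr34-1 it was -0.69 (adjusted p = 0.242). Without G7, where Peg3 was highest among ciliated clones, it was -0.79 and not called (adjusted p = 0.114, edgeR).

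Plagl1 encodes a zinc finger transcription factor that slows the cell cycle and acts on other imprinted genes. It had few or no reads in 4 of 5 mutant clones and reads in every control library. In the non-ciliated Wdr34 and Wdr60 clones and the ciliated Wdr34-1 and Wdr60 clones together, 14 reads of Plagl1 were counted in 16 libraries, with at most 3 in a library, whereas the lowest control library had 16. The remaining mutant clone, Wdr34-3, had the highest level of all 13 clones.

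The Plagl1 level was 5.57 ± 1.93 CPM in AB, 9.66 ± 1.07 in Co1, 4.16 ± 0.473 in Co2 and 1.07 ± 0.294 in Co3 (SD, n = 4 libraries). The non-ciliated Wdr34 clone had 3 reads in 4 libraries, or 0.0454 CPM with an exact Poisson 95% interval of 0.00935 to 0.133, and the Wdr60 clone 4 reads, or 0.0606 CPM (0.0165 to 0.155). These intervals cover counting error only. Even their upper ends lie below the lowest control clone, Co3.

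Ciliated controls stood at 1.35 ± 0.547 CPM of Plagl1 in D8, 1.48 ± 0.996 in H12, 8.13 ± 0.845 in A4 and 5.95 ± 1.41 in G7 (SD, n = 4 libraries). Wdr34-1 had 5 reads, or 0.0723 CPM (95% interval 0.0235 to 0.169), and Wdr60 2 reads, or 0.0267 CPM (0.00323 to 0.0963). By contrast Wdr34-3 held 19.7 ± 1.26 CPM, 4.66 times the mean of the ciliated controls.

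Plagl1 was therefore called lower in non-ciliated mutants (fitted log2 fold change -6.41 ± 0.70, SE, adjusted p = 2.54e-06, edgeR), a value that rests on few reads and is no bound, and the call was lost with the clone as a block (-6.01, adjusted p = 0.212). In ciliated cells the pooled fit gave 0.64 ± 0.84 (SE, adjusted p = 0.725, edgeR), which joins clones that lie on opposite sides of the controls. Without Wdr34-3 it was -6.26 (adjusted p = 1.2e-05).

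Igf2 and H19 are neighbours on chromosome 7 that share enhancers, 72.6 kb apart, and are read from opposite parental copies. Igf2 encodes insulin-like growth factor 2, the main fetal growth factor, and H19 a noncoding RNA that carries miR-675.

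H19 ran from 1 read in the 4 libraries of H12 to 85.2 ± 8.76 CPM in Co2 (SD, n = 4 libraries). In the other non-ciliated controls it was at 2.39 ± 0.384 CPM in AB, 11.5 ± 1.36 in Co1 and 22.4 ± 2.28 in Co3, and in the non-ciliated mutants at 2.23 ± 0.492 in Wdr34 and 1.198 ± 0.399 in Wdr60 (SD, n = 4 libraries). Libraries of the Wdr34 mutant and of AB overlapped, although the 2 mutant means were the lowest. The log2 fold change was -4.16 ± 0.78 (SE, adjusted p = 0.00112, edgeR) and stayed called without any 1 clone, between -4.67 and -2.83, the latter without Co2. With the clone as a block it was -3.30 and not called (adjusted p = 0.565).

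In ciliated clones H19 was at 8.77 ± 0.775 CPM in D8, 0.853 ± 0.479 in G7 and 0.1001 ± 0.0531 in A4, while H12 had 1 read (SD, n = 4 libraries). The mutant Wdr34-3 stood at 25.6 ± 1.61 CPM, against 0.219 ± 0.195 CPM in Wdr60 and 2 reads in the 4 libraries of Wdr34-1. H19 missed the expression filter of the pooled ciliated fit. Without that filter its log2 fold change was 1.84 ± 1.05 (SE, adjusted p = 0.349, edgeR).

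Igf2 exceeded 1 CPM in 4 of 13 clones. The level was 18.5 ± 0.857 CPM in Wdr34-3, 3.50 ± 0.329 in Co2, 2.66 ± 0.607 in G7 and 1.73 ± 0.479 in D8 (SD, n = 4 libraries). Next came Co3 at 0.446 ± 0.140 CPM, and the other 8 clones had 1 to 12 reads in 4 libraries. The 2 non-ciliated mutants had 2 and 3 reads, and the ciliated Wdr60 clone 1 read.

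Pooled over ciliated mutants, Igf2 had a log2 fold change of 2.41 ± 0.95 (SE, adjusted p = 0.159, edgeR). Igf2 was called lower without Wdr34-3, at -4.58 (adjusted p = 0.00929, edgeR), and higher without Wdr60, at 2.98 (adjusted p = 0.0489, edgeR). It missed the filter of the pooled non-ciliated fit, where without the filter it was -4.57 ± 1.13 (SE, adjusted p = 0.0113, edgeR), called lower from counts under which 2 of the 4 controls, AB and Co1, also had few reads. Co2 held 258 of the Igf2 reads of these controls, and without it the value was -2.34 (adjusted p = 0.0383, edgeR). Over the 13 clone means of log2(CPM + 0.5), Pearson's r of H19 and Igf2 was 0.614, and over the 8 control clones 0.470, given as a description of clones that share a state and may recur between states. Without Co2 and G7 the values were 0.635 over 11 clones and 0.484 over 6. G7 held Igf2 with little H19, and Co1 and Co3 held H19 with little Igf2.

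**Figure D2:**
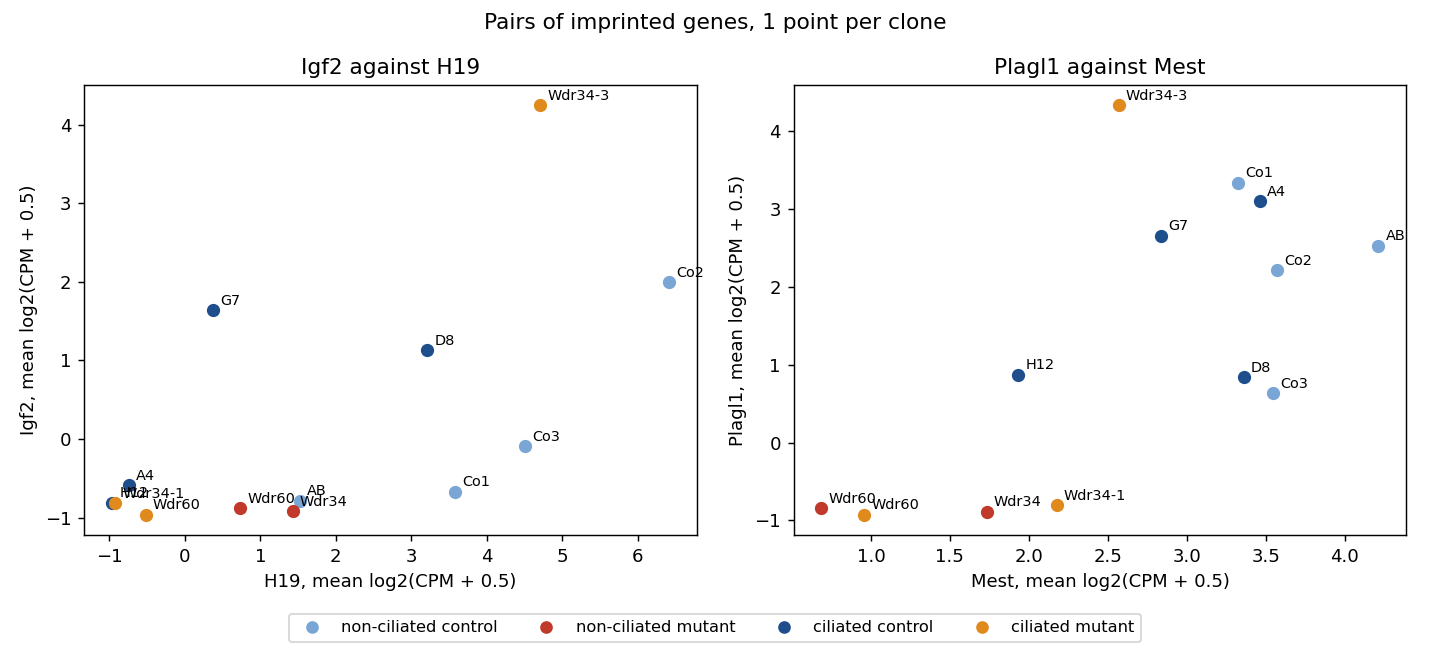
Mean log2(CPM + 0.5) of Igf2 against H19 (left) and of Plagl1 against Mest (right), 1 point per clone (mean of 4 libraries), coloured by state and genotype. Wdr34-3 is highest for Igf2 and Plagl1, Co2 is highest for H19, and the 4 other mutant clones lie along the bottom of both panels. In the left panel the controls AB, Co1, H12 and A4 lie near the bottom too.

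Igf2r encodes the receptor that takes IGF2 to the lysosome and in mice is read from the maternal copy. It was the steadiest of the detected members. The level was 132 ± 36.7 CPM in AB, 116 ± 4.76 in Co1, 167 ± 5.67 in Co2 and 120 ± 8.50 in Co3, against 110 ± 2.17 in Wdr34 and 130 ± 11.7 in Wdr60 (SD, n = 4 libraries).

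Ciliated controls had 127 ± 11.9 CPM of Igf2r in D8, 84.8 ± 3.24 in H12, 112 ± 27.9 in A4 and 149 ± 21.3 in G7, and ciliated mutants 82.1 ± 2.91 in Wdr34-1, 154 ± 10.2 in Wdr34-3 and 84.1 ± 8.32 in Wdr60 (SD, n = 4 libraries). In ciliated cells Wdr34-1 and Wdr60 lay just below the lowest control and Wdr34-3 above the highest, and in non-ciliated cells the groups overlapped. The log2 fold change was -0.16 ± 0.11 in non-ciliated cells (SE, adjusted p = 0.352, edgeR) and -0.16 ± 0.15 in ciliated cells (SE, adjusted p = 0.622, edgeR), where it was -0.52 without Wdr34-3 (adjusted p = 0.0183, under the fold limit of a call). Airn, the antisense RNA of the paternal Igf2r copy, overlaps it without sharing exon bases and was at 0.744 to 6.85 CPM.

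The remaining 4 members were at or near 0. Cdkn1c, an inhibitor of cyclin-dependent kinases, had 2 reads in all 52 libraries, both in Wdr34-3. Dlk1, a transmembrane protein of the Notch ligand type, had 1 read, in the ciliated Wdr60 clone, and Meg3, a noncoding RNA that lies 77.7 kb from Dlk1, had 0 reads. For Meg3 a count of 0 over 931026986 reads allows up to 0.00322 CPM (3 reads, counting error only).

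Grb10, an adaptor that restrains insulin and IGF1 receptor signalling, had 15 reads, of which 4 were in Wdr34-3 and none in another ciliated clone. In each non-ciliated control clone it had 1 to 4 reads in 4 libraries. Without the expression filter Grb10 was called lower in ciliated than in non-ciliated controls, at a fitted -2.57 ± 0.71 (SE, adjusted p = 0.00571, edgeR), a value that sets 0 reads in the ciliated control libraries against those few and is no bound.

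Single mutant clones were next set against the 4 control clones of their state, which the single-clone comparisons of a state share. Of 6 members tested, the non-ciliated Wdr34 clone had 4 lower and 0 higher, with 1.97% and 0.275% of all genes called lower and higher. The non-ciliated Wdr60 clone also had 4 lower and 0 higher (2.43% and 0.986% of all genes). In both, the called members were Mest, Peg3, Plagl1 and H19, of which 2, Mest and Plagl1, were left without replicate 2, 3 or 4. Acta2 was called lower in the Wdr60 clone and the leukocyte marker Csf1r in the Wdr34 clone. The renal epithelial marker Aqp3 was called higher in the non-ciliated Wdr60 clone, 1 of 11 tested.

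Among ciliated mutants, Wdr34-1 had 2 lower, Peg3 and Plagl1, and 0 higher (0.46% and 0.218% of all genes), with 0 or 1 lower without any 1 replicate number and 4 without H12. Ciliated Wdr60 had 4 lower, Mest, Igf2, Peg3 and Plagl1, and 0 higher (1.29% and 0.642%), but 2 lower, Mest and Plagl1, with the replicate block, without any 1 replicate number, and without D8 or G7. Wdr34-3 went the other way, with 3 higher, H19, Igf2 and Plagl1, and 0 lower (3.64% and 2.16%). Of these the H19 call was lost with DESeq2, with the replicate block, without any 1 replicate number and without A4, whereas Igf2 and Plagl1 stayed called in each. In the same clone the epithelial keratins Krt8 and Krt18 were called lower (-2.81 ± 0.96 and -2.35 ± 0.80, SE, adjusted p = 0.0425 and 0.0431, edgeR), as was the leukocyte marker Cd68, and Gata3 was called higher. The epithelial list, with 3 of 10 tested called, summed to 1923 CPM there, the lowest of the ciliated mutants, and its part in the result was not tested.

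For Mest the single-clone log2 fold changes were -2.11 ± 0.26 in non-ciliated Wdr34, -3.42 ± 0.32 in non-ciliated Wdr60 and -2.32 ± 0.42 in ciliated Wdr60, all 3 called (SE, adjusted p = 6.93e-05, 7.2e-07 and 0.00198, edgeR). They were -0.90 ± 0.35 in Wdr34-1 and -0.49 ± 0.34 in Wdr34-3, not called (SE, adjusted p = 0.202 and 0.332, edgeR). Plagl1 was called in all 5 clones, lower in 4 and higher in Wdr34-3 at 2.20 ± 0.52 (SE, adjusted p = 0.00481, edgeR). Wdr34-3 also had H19 at 3.396 ± 1.05 and Igf2 at 3.97 ± 0.74 (SE, adjusted p = 0.0258 and 0.000622, edgeR).

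**Figure D3:**
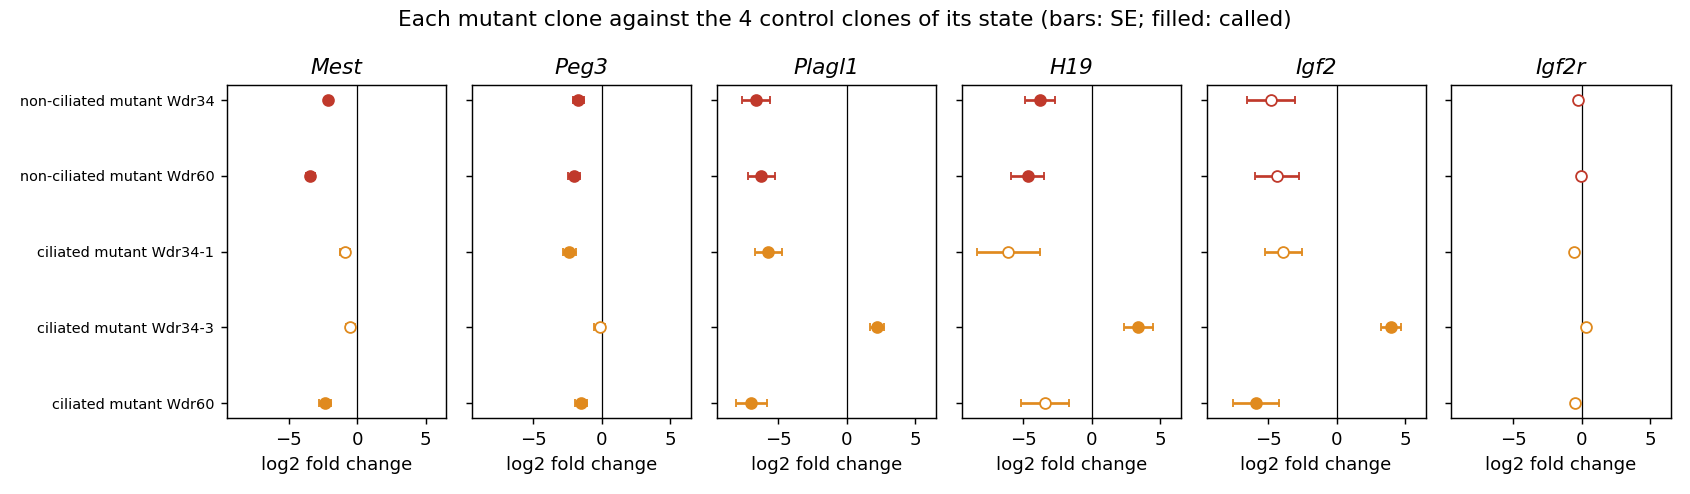
Log2 fold change (x axis) of 6 imprinted growth genes in each mutant clone against the 4 control clones of its state, from edgeR; bars are SE, and filled points were called. The points lie left of 0 except for Wdr34-3 in Plagl1, H19, Igf2 and Igf2r.

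The mutant effect was compared between states by an interaction term over all 52 libraries, where 1.12% of 12544 genes had a higher and 0.0638% a lower effect in ciliated cells. Of 6 members, 4 were higher and 0 lower: Mest at 1.57 ± 0.40, H19 at 5.99 ± 1.46, Igf2 at 6.96 ± 1.74 and Plagl1 at 7.07 ± 1.43 on the log2 scale (SE, adjusted p = 0.0239, 0.0203, 0.0237 and 0.0039, edgeR). Without Wdr34-3 none of the 4 was called. Without non-ciliated Wdr34 or Wdr60 1 was called (Mest and Plagl1, respectively), and without Co2 2 were, Mest and Plagl1. State, clone set and sequencing time cannot be told apart in this comparison.

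Between ciliated and non-ciliated control clones, 3.99% of 11856 genes were called lower in ciliated cells and 6.29% higher. Of 5 members, 1 was lower, H19, and 0 were higher. Its log2 fold change was -3.65 ± 0.80 (SE, adjusted p = 0.000204, edgeR), but the clones overlapped, since D8 at 8.77 CPM was above AB at 2.39 CPM. The log2 fold change was -2.32 without Co2 (adjusted p = 0.01) and -3.39 without G7 (adjusted p = 0.00143). Exact permutation of 4 against 4 clone means gave p = 0.0571 (2-sided, adjusted p = 0.178 over all genes). Without AB or without G7 Peg3 was called lower as well. The 3 leukocyte markers summed to 171 to 298 CPM in ciliated controls and 25.3 to 54.6 CPM in non-ciliated controls. Of the 7 fibroblast and smooth muscle markers 1 was tested, Col1a1, and it was called lower like H19, at -1.46. The renal epithelial marker Cdh16 was called higher, 1 of 9 tested. The part of these markers in this result was not tested.

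Control clones of 1 state, which differ in no intended edit, differed from each other in most of the detected members. A gene was called here at an adjusted p under 0.05 and a range of fitted clone levels of at least 1 on the log2 scale, which held for 32.9% of genes among ciliated controls and 25.6% among non-ciliated controls. Among ciliated controls 5 of 6 members were called, all but Igf2r, and among non-ciliated controls 4 of 6, all but Mest and Igf2r, with Mest called as well (5 of 6) without the 4 libraries that stand apart. The range of H19 was 8.79 among ciliated and 5.17 among non-ciliated controls, and that of Igf2 4.995 and 5.33. The filter of these fits kept a gene that was high in a single control clone. Igf2 entered through Co2 in non-ciliated controls (52 to 78 reads in a library) and through D8 and G7 in ciliated controls. H19 entered through D8 in ciliated controls (119 to 164 reads). Their ranges and calls there follow in part from how they entered, also within the counts above, and are given without p-values. The ranges are fitted values whose lower ends rest on few reads, such as 1 read of H19 in H12, and are no bounds. As clone means of log2(CPM + 0.5) the ranges were 4.17 and 4.89 for H19 and 2.45 and 2.79 for Igf2, so that the order of the pair in non-ciliated controls depends on the scale. Without G7 the same 5 were called in ciliated controls, but without H12 3 were, with Mest and Peg3 no longer among them. In non-ciliated controls 3 were called without Co2, with Igf2 no longer among them, and 3 without AB, with Peg3 no longer among them. Renal epithelial markers differed between control clones too, with 7 of 9 tested called among ciliated and 7 of 10 among non-ciliated controls and a median range of 4.18 and 2.74. They summed to 1792 CPM in G7 against 4784 CPM in D8, and to 1090 CPM in Co2 against 3483 CPM in Co3. Fibroblast and smooth muscle markers were called as well, Col1a1 in ciliated (1 of 1 tested) and Pdgfra and Acta2 in non-ciliated controls (2 of 3). Of the leukocyte markers, Cd68 was called in ciliated (1 of 2 tested) and Ptprc and Csf1r in non-ciliated controls (2 of 3). The part of these markers in the spread of the members was not tested.

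Expressed as the SD between 4 clone means of log2(CPM + 0.5), H19 had 1.92 in ciliated and 2.03 in non-ciliated controls, more than 98.1% and 99.1% of 12947 genes. Igf2 had 1.22 and 1.29, Plagl1 1.18 and 1.13, and Peg3 0.94 and 0.90, each above 91.8% of genes or more in both states. The expression filter also kept a gene that was high in a single clone. The high ranks of H19 and Igf2, which were near 0 in some clones, may therefore follow in part from how they entered. Without Co2 the non-ciliated SD was 1.53 for H19 and 0.37 for Igf2, and without G7 the ciliated SD was 2.35 and 1.06. Mest was nearer the rest at 0.70 and 0.38 (above 86.2% and 72.3% of genes), and Igf2r lay in the middle at 0.34 and 0.24 (56.8% and 46.2%). Over the 6 members the median was 1.06 and 1.02, beside 0.30 and 0.26 over all genes. Within a clone, the SD between libraries was smaller for 5 of these members in both states, at 0.16 to 0.47, whereas for Igf2r in non-ciliated controls it was 0.25, slightly above that between clones.

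**Figure D4:**
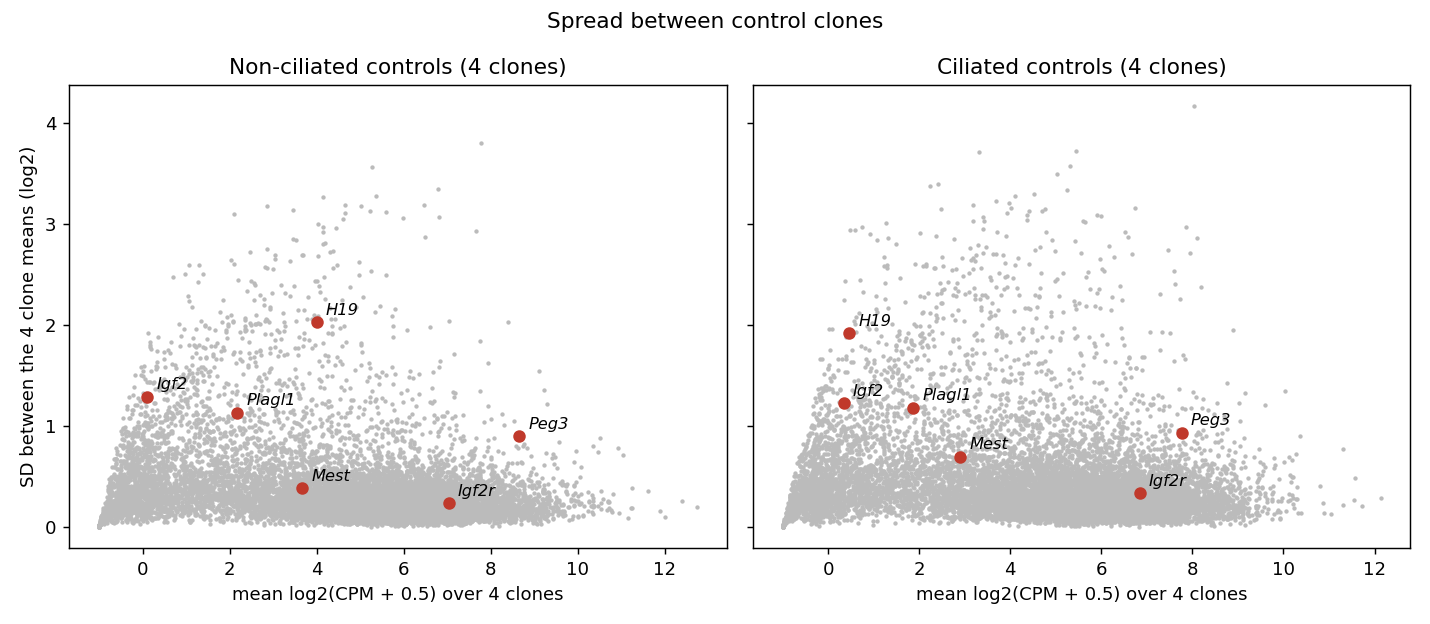
SD between the 4 control clone means (y axis, log2) against the mean level over these clones (x axis, log2(CPM + 0.5)) for 12947 genes (grey) and 6 imprinted growth genes (red), non-ciliated controls left and ciliated controls right. H19, Igf2, Plagl1 and Peg3 lie above most genes in both panels, and Igf2r lies among them.

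Other imprinted genes were described from a list. Of 49, 27 passed the expression filter over all libraries, and their median SD between control clones was 0.27 in ciliated and 0.26 in non-ciliated cells, beside 0.30 and 0.26 for all genes. Among control clones 10 of 26 tested were called in ciliated and 8 of 25 in non-ciliated cells, beside the 32.9% and 25.6% of all genes. Against controls, 1 of 22 tested was called higher in ciliated mutants, Mkrn3 (log2 fold change 1.60 ± 0.41, SE, adjusted p = 0.0286, edgeR), and 1 of 24 in non-ciliated mutants, Asb4 (1.57 ± 0.47, SE, adjusted p = 0.0269, edgeR), with 0 lower in each. Of all genes, 0.418% were called higher and 0.226% lower in ciliated mutants, and 0.491% and 2.57% in non-ciliated mutants. Mkrn3 and Asb4 also differed among the control clones of each state. The median log2 fold change of the list was -0.07 in both states, beside -0.01 in ciliated and 0.00219 in non-ciliated cells over all genes.

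Of this list Dcn, a matrix proteoglycan imprinted in placenta, varied most, from 0 reads in the non-ciliated Wdr60 clone to 29.2 CPM in Wdr34-3, with an SD between clones of 1.60 on the log2 scale. Peg10, a retrotransposon-derived placental gene, ran from 117 CPM in H12 to 798 CPM in Co1. In Wdr34-3 both were called higher than in controls, Dcn at 6.28 ± 0.56 and Peg10 at 1.29 ± 0.29 (SE, adjusted p = 1.01e-07 and 0.00342, edgeR). Usp29, which starts beside Peg3 and is read from the same parental copy, was called lower in non-ciliated Wdr60 and in Wdr34-1. Its r with Peg3 over 13 clone means was 0.968 and over the 8 controls 0.957.

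**Figure D5:**
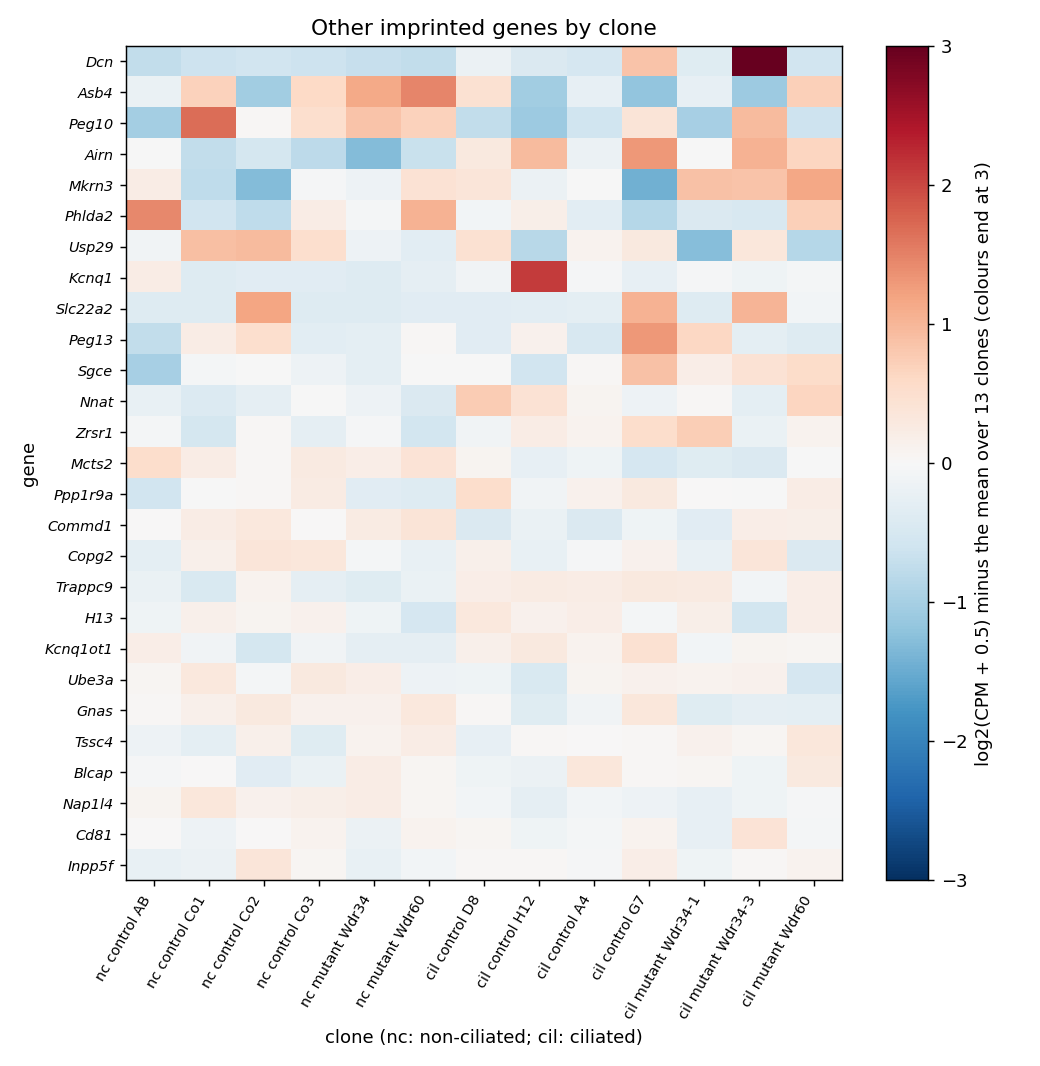
Level of 27 other imprinted genes (rows) in 13 clones (columns), as log2(CPM + 0.5) minus the mean of the gene over 13 clones, with rows ordered by their spread. Dcn is highest in Wdr34-3, where its colour reaches the end of the scale, and rows in the lower part change little between clones.

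Partners of IGF2 came next. Of 8 Igf pathway genes, 0 of 7 tested were called in the pooled mutants of either state, while 2 of 7 (Irs2 and Igf2bp3) differed among ciliated and 3 of 7 (Irs1, Irs2 and Igf2bp3) among non-ciliated control clones, beside the same 32.9% and 25.6% of all genes. Igf1r, the receptor through which IGF2 signals growth, was at 163 ± 30.2 CPM (SD, n = 13 clones), and Igf1, which passed the expression filter only in the comparison of Wdr34-3 with controls, was at 1.72 ± 0.518 CPM in that clone (SD, n = 4 libraries) and is given as a level only, since it entered the test through the clone where it is high. Irs2, an adaptor of the insulin and IGF1 receptors, had the widest spread of these among all clones after the filter, from 29.0 CPM in AB to 122 CPM in Co2.

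Among 12 genes that set or keep imprints, 0 of 10 tested were called in the pooled mutants of either state. In single clones 1 call was made, Dnmt3b, a methyltransferase that adds new methylation, at -1.54 ± 0.36 in Wdr34-3 (SE, adjusted p = 0.00432, edgeR). Dnmt3b also differed among the control clones of both states, with Zfp57 and Tet1 in ciliated (3 of 11 tested) and Dnmt3a and Tet3 in non-ciliated controls (3 of 10). These counts lie near the 32.9% and 25.6% of all genes called among ciliated and non-ciliated controls. Dnmt1, which copies methylation at cell division, was at 347 ± 31.0 CPM and Trim28, the corepressor that ZFP57 recruits, at 560 ± 54.8 CPM (SD, n = 13 clones). Zfp57 itself ran from 9.67 CPM in G7 to 53.2 CPM in Co3. Dnmt3a, Tet2 and Tet3, which add or oxidise methylation, were higher in ciliated than in non-ciliated controls, 3 of 10 tested with 0 lower, beside the 6.29% of all genes called higher.

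The 4 genes whose clone means were most like those of Mest, of 12941 compared, were Ttc38 (Pearson's r = 0.859), Dcun1d3 (0.846), Zfp518a (0.818) and Ank1 (0.805), over 13 clones that share a state and may recur between states. Each of the 4 was lowest in a Wdr60 clone, Dcun1d3 and Zfp518a in the ciliated one and Ttc38 and Ank1 in the non-ciliated one. Mest was itself lowest in the Wdr60 clones and the genes were picked by their r with it, so this follows largely from the choice. Of the members, Peg3 (0.671) and Plagl1 (0.670) came nearest to Mest, at 0.443 and 0.314 over the 8 control clones, followed over 13 clones by H19 (0.486), Igf2r (0.445) and Igf2 (0.267).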

How the data were processed

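Sequencing libraries had been made with a SMARTer mRNA kit from total RNA, in 13 sets of 4, each of 1 clone in 1 state. The authors aligned reads to GRCm38/mm10 and counted them per gene symbol with Rsubread and featureCounts, and the deposited tables hold whole-number counts that had not been normalised. Strand setting and handling of reads that map to several places are not given in the sources used here. The study's methods used DESeq2 1.18.1 in R 3.4.4.

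Groups were taken from the labels. The members and gene lists were chosen with earlier results of these data known. The tests were run with edgeR 4.0.16 in R 4.3.3 (filterByExpr, TMM, estimateDisp, glmQLFit, glmQLFTest, 2-sided, adjusted over all genes tested), limma 3.58.1 and DESeq2 1.42.0. SE is the log2 fold change divided by the square root of F. Levels are CPM, TMM-scaled over all 52 libraries, and clone means of log2(CPM + 0.5) were permuted exactly. All 10 members were described, with the 5 genes most correlated with Mest over clones (1 is not reported here), and from 3 lists any gene called in both states or in every mutant clone of a state plus those with the largest spread (of those lists, genes named for a call in 1 comparison and Igf1r, Dnmt1, Trim28 and Zfp57 were added after their values were seen). Lengths come from GENCODE vM21, and promoters and coordinates from RefSeq GRCm38.p6, which matched 10 members and 23204 of 24421 symbols. The edgeR script was tested on simulated data. Alternatives were other size factors, filters, thresholds and tools, clones summed or blocked, a replicate block, and leaving out replicates, clones or, added after seeing the data, 4 libraries that stand apart, each clone in the comparison between states, and Co2 and G7 for H19 and Igf2.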

Additional observations from a re-analysis of the deposited data

Results flagged for a closer look

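In 6 of 61 sets of 4 libraries with at least 40 reads of a member, and in 0 of 12 sets of 4 control clones, the lowest or highest value lay far from the other 3 by Dixon's ratio on log2(CPM + 0.5), which chance gives in about 1 of 20 sets. In library 1 of the non-ciliated control AB, Peg3 was at 64.4 CPM against 228 to 247 in the other 3, Plagl1 at 2.72 against 6.13 to 6.97 and Igf2r at 77.5 against 145 to 157. In library 1 of the non-ciliated Wdr60 clone Peg3 was at 141 CPM against 101 to 102. In library 1 of D8 Peg3 was at 284 CPM against 232 to 238, and in library 2 of Co3 Igf2r was at 108 CPM against 123 to 126.

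The mutant effect differed between states (ciliated minus non-ciliated, edgeR interaction) for Mest by 1.57, for H19 by 5.99, for Igf2 by 6.96 and for Plagl1 by 7.07 on the log2 scale. None of the 4 was called without Wdr34-3 or with clones summed.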

How the results depend on the processing

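Of 164 alternative counts of called members, 120 stayed within 1.5 times the main count and 44 did not, and of 211 alternative values of single members 179 kept their direction and call or stayed within the spread, 18 lost and 4 gained the call, 5 with no test took another value and 5 changed sign. With the libraries of each clone summed, 0 members were called in ciliated mutants (main 1), non-ciliated mutants (main 4), the difference between states (main 4) and the comparison of control clones between states (main 1). The summed fold of Mest stayed about as large, at -1.04 in ciliated and -2.61 in non-ciliated mutants. voomLmFit with the clone as a block called 0 and 1 (Mest) in ciliated and non-ciliated mutants and turned Igf2 to -0.34 and Plagl1 to -2.58 in ciliated mutants. DESeq2 called 2 in ciliated mutants (Mest and Peg3) and 4 in Wdr34-1. At an adjusted p under 0.01, 0 were called in ciliated mutants. With the replicate number as a block, 0 were called in ciliated mutants and 2 in ciliated Wdr60 (main 4), the other counts staying within 1.5 times. Same-numbered libraries did not deviate together in the median (r 0.0134 over 84 ciliated and 0.0206 over 60 non-ciliated pairs), and 8 of 28 and 7 of 24 libraries were closest to their own number. Single pairs reached r = 0.815 in ciliated and 0.300 in non-ciliated cells, with 28 and 18 pairs over 0.1. The numbers were not taken as pairing. Leaving out 1 replicate number or clone gave 0 to 4 in ciliated mutants, 4 in every case in non-ciliated mutants, 0 to 4 for the difference between states, 1 to 2 for control clones between states, 2 to 5 in non-ciliated Wdr34 and in non-ciliated Wdr60, 0 to 4 in Wdr34-1, 2 to 3 in Wdr34-3, 2 to 4 in ciliated Wdr60, and 3 to 5 among the control clones of each state. In ciliated mutants it moved Igf2 between -4.58 and 2.98, Plagl1 between -6.26 and 1.22, Igf2r between -0.52 and 0.00214, Peg3 between -1.90 and -0.69 and Mest between -1.45 and -0.69. The causes were not tested, other than that leaving out a replicate leaves fewer libraries. Exact permutation gave 0 of 5 members at p under 0.05 in ciliated mutants at each pseudocount (0.1, 0.5 and 1). Only 2 or 3 mutant clones stand for the mutation in each state, and in clones with few reads the depth limits H19, Igf2, Plagl1, Grb10, Cdkn1c and Dlk1.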
